A study of Mus musculus with 6 samples.

Results

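The 10 genes described here encode CC chemokines made by myeloid cells: Ccl2, Ccl7, Ccl12, Ccl8, Ccl3, Ccl4, Ccl5, Ccl6, Ccl9 and Ccl24. They were chosen by name, and each was read from the probe sets of an Affymetrix array whose annotation gives that gene and no other. Each of the 10 had exactly 1 such probe set, so all 10 were measured, among 19938 genes in all.

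CC chemokines are small secreted proteins, named for a pair of adjacent cysteines, that bind G-protein-coupled receptors and direct the migration of leukocytes. Ccl2, Ccl7 and Ccl12 act on CCR2 and draw monocytes out of the marrow and into tissue, Ccl3, Ccl4 and Ccl5 attract monocytes and T cells, Ccl6 and Ccl9 are rodent ligands of CCR1, and Ccl24 acts on the eosinophil receptor CCR3. In macrophages many of these genes are known targets of NF-kappaB and of interferon signalling, and dendritic cells and macrophages are among their main sources in tissue.

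The study grew marrow of C57BL/6J mice aged 6 to 10 weeks, labelled male, for 7 days and sorted 3 populations, with 2 arrays for each. GM-BMDC were cells of cultures with 25 ng/ml GM-CSF that carried much MHC class II and little F4/80, and the labels name them dendritic cells. GM-BMM came from the same kind of culture with 25 ng/ml GM-CSF, carried little class II and much F4/80, and are labelled macrophages. M-BMM were CD11b-positive and F4/80-positive macrophages of cultures with 20% L cell conditioned medium, which supplied M-CSF. No agent other than the growth factor is named for any of them, and the marrow comes from mice with no named genetic change. The labels call the arrays of a population biological replicates without saying which animals or cultures they came from, so p-values here measure the spread between arrays. Conditioned medium of L cells, a fibroblast line, holds more than M-CSF, so the growth factor and the rest of the medium cannot be told apart in comparisons with M-BMM.

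Values are log2 signals after RMA (robust multi-array average), and array medians lay between 6.18 and 6.28. The files flag no probe set as absent, so signals below the lower quartile of the whole table, 5.04, are called low. All 10 dendritic cell markers listed were higher in GM-BMDC than in GM-BMM and than in M-BMM (limma adjusted p under 0.05). Their summed signal (linear scale) was 22971 and 26564 in GM-BMDC, 5317 and 4757 in GM-BMM, and 583 and 609 in M-BMM. H2-Ab1 in that list is a class II gene and Ciita a regulator of class II, so they are not independent of the sort. Of 9 macrophage markers measured, 4 were lower in GM-BMDC than in GM-BMM (limma adjusted p under 0.05). By the same test, 3 were lower in GM-BMDC than in M-BMM. Without regard to that threshold, every macrophage marker had a lower mean in GM-BMDC than in M-BMM. All but C1qa and C1qb also had a lower mean in GM-BMDC than in GM-BMM. The macrophage markers summed to 9940 and 16713 in GM-BMDC, 20888 and 27202 in GM-BMM, and 27410 and 27760 in M-BMM. Monocyte markers (4 measured) summed to 1307 and 2424 in GM-BMDC, 4112 and 5085 in GM-BMM, and 879 and 649 in M-BMM. Of 10 neutrophil markers, 2 were low on every array, and their sum was 763 and 738 in GM-BMDC, 1404 and 648 in GM-BMM, and 879.5 and 766 in M-BMM. The T and NK lymphocyte, mast cell, eosinophil, fibroblast and erythroid lists summed to at most 566.4 on every array. B lymphocyte markers (4 measured) summed to 734 and 383 in GM-BMDC, 310 and 360 in GM-BMM, and 1265 and 1310 in M-BMM. Among these markers only Cd79b was highest in M-BMM, at 10.16 and 10.21, against at most 8.49 on any GM-CSF array. Cd79a, Ms4a1 and Pax5 had their highest means in GM-BMDC, so the B lymphocyte sum does not rank the populations by all its markers. In GM-BMDC relative to GM-BMM, Cd79a, Ms4a1, Cd8a, Kit and Siglecf of these lists were higher and Dcn lower (limma adjusted p under 0.05).

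Sex-linked RNA went against the label on some arrays. Xist, the X-inactivation RNA of female cells, was 11.66 and 10.68 in GM-BMDC, 11.58 and 4.93 in GM-BMM, and 4.53 and 4.80 in M-BMM, while the Y-linked gene Eif2s3y was 3.94 and 8.80 in GM-BMDC, 3.66 and 9.10 in GM-BMM, and 9.32 and 9.17 in M-BMM. Uty and Kdm5d, also Y-linked, were likewise low on the first array of each GM-CSF population. The first array of GM-BMDC and the first of GM-BMM thus carried Xist and no Y-linked signal above the low line, and the second array of GM-BMDC carried both. Sizes are therefore also given without the first array of each GM-CSF population. That leaves 1 array in GM-BMDC and 1 in GM-BMM, which are assumed to vary as the 2 of M-BMM do. The GM-BMDC array left still carried Xist (10.68), and the GM-BMM array left did not (4.93). Leaving out the first arrays thus does not match GM-BMDC with the macrophage populations in sex-linked RNA.

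Some ligands differed between the populations of the GM-CSF culture, and some between GM-BMM and M-BMM, which differ in medium and in sort gate. Of the 10 ligands, 5 fell in GM-BMDC relative to GM-BMM, led by Ccl7 and Ccl2, and Ccl5 rose. Ccl5, Ccl6 and Ccl9 rose in GM-BMM relative to M-BMM, and no ligand fell past the threshold there (at an unadjusted limma p under 0.05, 4 were higher and 0 lower). In GM-BMDC relative to M-BMM 3 ligands rose and 6 fell. Calls are limma tests on all 6 arrays with Benjamini-Hochberg adjustment over all genes at 0.05. In bulk RNA, fewer cells of a type and less RNA per cell cannot be told apart.

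Those counts stand against the following shares of all 19938 genes. Between GM-BMDC and GM-BMM, 10.4% of genes were called, 4.69% higher and 5.74% lower, against 6 of 10 ligands (1 higher, 5 lower). Between GM-BMM and M-BMM, 6.19% of genes were called, 3.62% higher and 2.57% lower, against 3 of 10 ligands. Between GM-BMDC and M-BMM, 16.7% of genes were called, 7.76% higher and 8.9% lower, against 9 of 10 ligands. The median log2 difference of the ligands was -0.53, 0.18 and -0.65 in these comparisons, against 0.02, -0.02 and -0.0024 over all genes. The median size of the log2 difference, without its sign, was 0.86 over the ligands and 0.15 over all genes in the first of these comparisons, 0.30 and 0.14 in the second, and 1.44 and 0.17 in the third. Without the first array of each GM-CSF population, 1 array is left in each, so only sizes are given here. In GM-BMDC minus GM-BMM, Ccl6 went from 0.22 to 0.80, Ccl8 from -0.34 to -0.75 and Ccl5 from 0.99 to 0.58. In GM-BMM minus M-BMM, Ccl2 went from 0.92 to 0.60. Leaving out either M-BMM array lowered the number of ligands called between GM-BMDC and M-BMM. The ranges over single arrays are given at the end, with those of all genes. The comparisons share arrays, so their counts are not independent of each other.

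**Figure D1:**
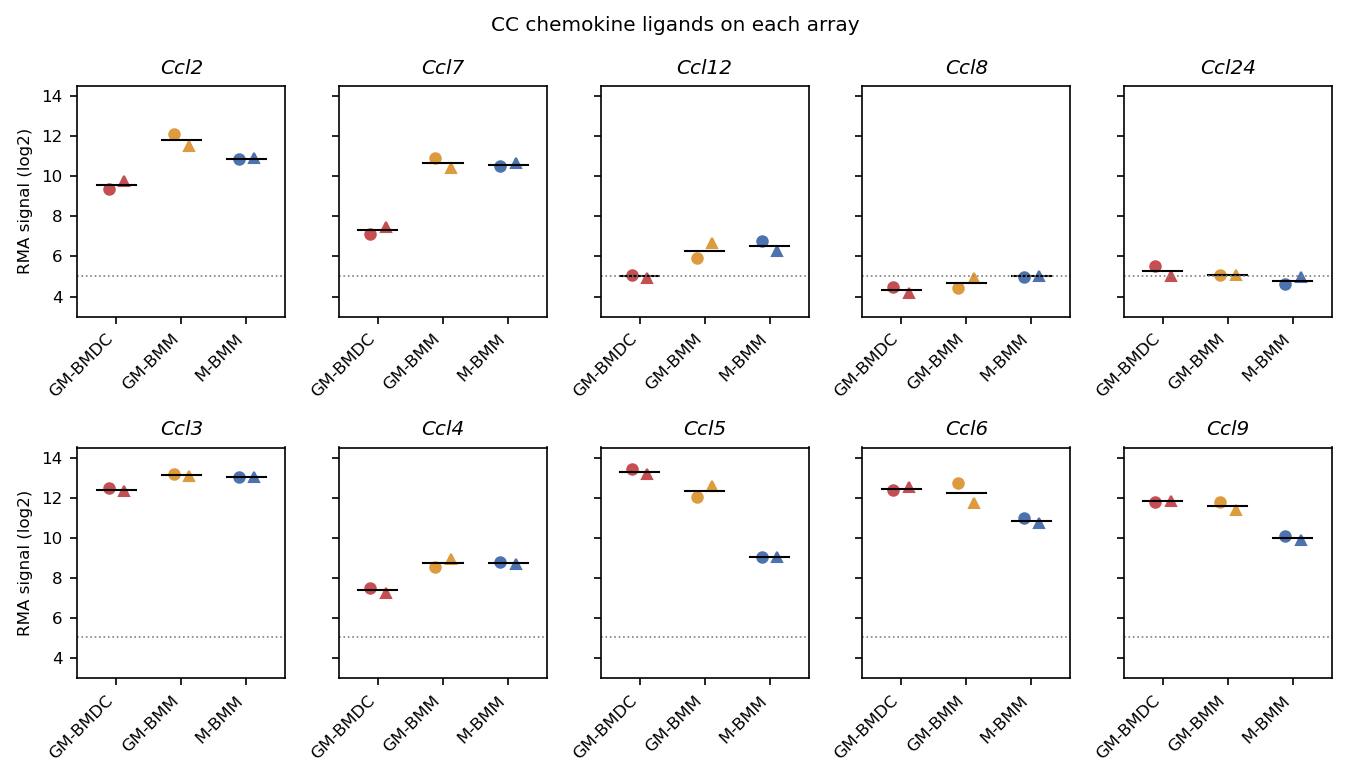
RMA log2 signal of each ligand on the 6 arrays, with GM-BMDC, GM-BMM and M-BMM from left to right, circles for array 1, triangles for array 2, a bar at the mean of 2 arrays and a dotted line at the low level of 5.04. Ccl7 lies between 7.14 and 7.48 in GM-BMDC and between 10.42 and 10.93 in the other 4 arrays, and Ccl5 lies at 9.04 and 9.05 in M-BMM and between 12.04 and 13.45 in the other 4.

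Ccl7, a monocyte attractant that binds CCR2, differed most between the GM-CSF populations among the 10 ligands. Its signal was 7.14 and 7.48 in GM-BMDC, 10.93 and 10.42 in GM-BMM, and 10.49 and 10.67 in M-BMM. The GM-BMDC arrays lay below all others, and the arrays of both macrophage populations overlapped. Ccl7 fell 10.3-fold in GM-BMDC relative to GM-BMM (log2 difference -3.37 ± 0.19, standard error, n = 2 arrays each, limma adjusted p = 0.000141). It fell 9.67-fold relative to M-BMM (-3.27 ± 0.19, adjusted p = 8.95e-05). Between GM-BMM and M-BMM the difference was 0.09, with a 95% interval of -0.36 to 0.55 (adjusted p = 0.874).

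Ccl2, the principal monocyte attractant and the gene next to Ccl7, had signals of 9.35 and 9.74 in GM-BMDC, 12.11 and 11.48 in GM-BMM, and 10.85 and 10.91 in M-BMM. The 3 populations did not overlap on these arrays, with GM-BMM highest and GM-BMDC lowest. Ccl2 fell 4.77-fold in GM-BMDC relative to GM-BMM (-2.25 ± 0.22, limma adjusted p = 0.00108) and 2.53-fold relative to M-BMM (-1.34 ± 0.22, adjusted p = 0.00607). The call against M-BMM was lost without either M-BMM array (adjusted p = 0.0604 and 0.0632). The 1.89-fold higher mean of GM-BMM over M-BMM (0.92 ± 0.22) did not pass the threshold on all arrays (limma adjusted p = 0.0573). The difference was 1.23 without the second GM-BMM array and 0.60 without the first array of each GM-CSF population. Those fits leave 1 array in GM-BMM, so only sizes are given.

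Ccl12, a mouse ligand of CCR2, was dim throughout, with signals of 5.06 and 4.95 in GM-BMDC, 5.90 and 6.68 in GM-BMM, and 6.75 and 6.26 in M-BMM. Its GM-BMDC mean of 5.00 was low, so its folds start from a level that may be no more than background. Ccl12 fell 2.44-fold in GM-BMDC relative to GM-BMM (-1.29 ± 0.26, limma adjusted p = 0.0226) and 2.84-fold relative to M-BMM (-1.50 ± 0.26, adjusted p = 0.00797). The macrophage populations overlapped, and their difference was -0.22, with a 95% interval of -0.83 to 0.40. The call between GM-BMDC and GM-BMM was lost when all probe sets were tested as features (limma adjusted p = 0.08). Its value was -1.34 without GM-BMDC array 1 and -1.23 without GM-BMDC array 2. It was -1.68 without GM-BMM array 1, -0.90 without GM-BMM array 2 and -0.84 without the second array of each GM-CSF population. Against M-BMM the call was lost without the first M-BMM array (adjusted p = 0.0861).

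Ccl8, described in mice as a ligand of CCR8, was low on all 6 arrays. Its signal was 4.48 and 4.16 in GM-BMDC, 4.40 and 4.91 in GM-BMM, and 4.99 and 5.01 in M-BMM. The difference between GM-BMDC and M-BMM, -0.68 ± 0.19, passed the threshold (limma adjusted p = 0.0479), but both means lay under the low line, so no fold is given. That call was lost in 10 of 19 alternative analyses, among them those without GM-BMDC array 1 (adjusted p = 0.0634), GM-BMDC array 2 (adjusted p = 0.189), M-BMM array 1 (adjusted p = 0.207) or M-BMM array 2 (adjusted p = 0.195).

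Promoter sequences from RefSeq (build GRCm38.p6) were at hand for 5 of the 10 genes: Ccl3, Ccl6, Ccl8, Ccl9 and Ccl12. Ccl12 and Ccl8 lie next to each other and are shown because their promoters aligned with each other around the start site. In the best local alignment of the windows from 250 bases before the annotated start to its first 50 transcribed bases, 28 of 36 columns (77.8%) were identical. The 250 bases before the start are printed, on the plus strand of chr11:82101595-82101844 for Ccl12 and of chr11:82114935-82115184 for Ccl8, with the aligned bases in capitals.
Ccl12: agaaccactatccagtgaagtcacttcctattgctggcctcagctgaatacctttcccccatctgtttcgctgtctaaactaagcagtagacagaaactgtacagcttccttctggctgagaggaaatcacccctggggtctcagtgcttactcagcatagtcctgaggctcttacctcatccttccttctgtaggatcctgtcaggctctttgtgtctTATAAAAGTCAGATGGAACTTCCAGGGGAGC
Ccl8: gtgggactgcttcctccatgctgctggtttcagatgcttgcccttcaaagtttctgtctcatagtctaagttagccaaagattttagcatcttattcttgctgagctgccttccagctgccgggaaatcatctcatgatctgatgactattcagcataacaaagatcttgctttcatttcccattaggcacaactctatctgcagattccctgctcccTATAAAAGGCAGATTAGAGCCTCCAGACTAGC

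The capitals of both open with TATAAA, the core of a TATA box, 31 bases before the start in Ccl12 and 32 in Ccl8. TATAAA was in 13.62% of the 32851 promoters of the same length on either strand, and in 3 of these 5, Ccl9 being the other. GAGGAA, a core recognised by the myeloid factor PU.1, was in 28.28% of all promoters and in 3 of these 5. It began at base -130 in Ccl12 and, on the opposite strand, at -240 in Ccl8 and at -33 in Ccl3. The Ccl12 signal differed between GM-BMDC and the macrophages. Ccl8 was low on every array, so its pattern cannot be set against that of Ccl12. Any part of the shared letters in these levels was not tested. These matches describe letters in the window and no binding was measured.

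Ccl3 and Ccl4, neighbouring genes for inflammatory attractants of monocytes and T cells, were also lower in GM-BMDC than in both macrophage populations. Ccl3 had signals of 12.50 and 12.31 in GM-BMDC, 13.17 and 13.08 in GM-BMM, and 13.03 and 13.04 in M-BMM. Every macrophage array thus lay above both GM-BMDC arrays. Ccl3 fell 1.65-fold in GM-BMDC relative to GM-BMM (-0.72 ± 0.12, limma adjusted p = 0.00902) and 1.55-fold relative to M-BMM (-0.63 ± 0.12, adjusted p = 0.0102). The call against M-BMM was lost without the first (adjusted p = 0.0782) or the second M-BMM array (adjusted p = 0.0751). GM-BMM and M-BMM differed by 0.09, with a 95% interval of -0.18 to 0.37.

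Ccl4 had signals of 7.51 and 7.26 in GM-BMDC, 8.53 and 8.93 in GM-BMM, and 8.81 and 8.70 in M-BMM. It fell 2.54-fold in GM-BMDC relative to GM-BMM (-1.35 ± 0.16, limma adjusted p = 0.00267) and 2.59-fold relative to M-BMM (-1.37 ± 0.16, adjusted p = 0.00148). The arrays of the macrophage populations overlapped, with a difference of -0.03 and a 95% interval of -0.41 to 0.36. Ccl4 and Ccl7 were therefore alike in order, with GM-BMDC lowest and GM-BMM and M-BMM not separated by their spread.

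Ccl5, which attracts T cells and monocytes, ran the other way and had the largest difference of the 10 ligands. Its signal was 13.45 and 13.16 in GM-BMDC, 12.04 and 12.57 in GM-BMM, and 9.04 and 9.05 in M-BMM. The populations did not overlap, with GM-BMDC highest and M-BMM far below both. Ccl5 rose 19.1-fold in GM-BMDC relative to M-BMM (4.25 ± 0.19, limma adjusted p = 2.59e-05) and 9.57-fold in GM-BMM relative to M-BMM (3.26 ± 0.19, adjusted p = 0.000148). Between the GM-CSF populations it rose 1.99-fold in GM-BMDC (0.99 ± 0.19, limma adjusted p = 0.017). That last call was lost when only the 2 GM-CSF populations were fitted (limma adjusted p = 0.0561). Its value was 0.85 without GM-BMDC array 1 and 0.58 without the first array of each GM-CSF population.

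Ccl9, a CCR1 ligand found in rodents, had signals of 11.79 and 11.83 in GM-BMDC, 11.81 and 11.39 in GM-BMM, and 10.08 and 9.90 in M-BMM. The GM-CSF arrays overlapped one another and all lay above M-BMM. Ccl9 rose 3.53-fold in GM-BMDC relative to M-BMM (1.82 ± 0.16, limma adjusted p = 0.000384) and 3.06-fold in GM-BMM relative to M-BMM (1.61 ± 0.16, adjusted p = 0.0013). GM-BMDC and GM-BMM differed by 0.21, with a 95% interval of -0.16 to 0.58.

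Ccl6, its neighbour and another rodent CCR1 ligand, had signals of 12.38 and 12.53 in GM-BMDC, 12.73 and 11.74 in GM-BMM, and 10.96 and 10.72 in M-BMM. The GM-BMM arrays lay on either side of both GM-BMDC arrays, and all 4 lay above M-BMM. Ccl6 rose 3.06-fold in GM-BMDC relative to M-BMM (1.61 ± 0.29, limma adjusted p = 0.00899) and 2.63-fold in GM-BMM relative to M-BMM (1.39 ± 0.29, adjusted p = 0.0341). The first of these calls was lost without M-BMM array 1 (adjusted p = 0.0647) or array 2 (adjusted p = 0.0868). The second was lost when only GM-BMM and M-BMM were fitted (limma adjusted p = 0.051). Its value was 0.89 without the first GM-CSF arrays, 1.89 without GM-BMM array 2, 1.51 without M-BMM array 1 and 1.27 without M-BMM array 2. Between the GM-CSF populations the difference was 0.22, with a 95% interval of -0.46 to 0.90. It was 0.80 without the first GM-CSF arrays and 0.72 without GM-BMM array 1 alone.

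Ccl6 and Ccl9 stand beside each other on chromosome 11 and are shown because they rose together in the GM-CSF populations and had the highest-scoring local alignment of the 10 promoter pairs, with 59 of 74 columns identical (79.7%). Shorter alignments of other pairs had higher shares of identical columns. The aligned stretch ran from 59 bases before the Ccl6 start and from 18 bases before the Ccl9 start into the transcribed part. The 250 bases before each start are printed on the minus strand, from chr11:83593088-83593337 for Ccl6 and chr11:83578637-83578886 for Ccl9, with the aligned bases in capitals.
Ccl6: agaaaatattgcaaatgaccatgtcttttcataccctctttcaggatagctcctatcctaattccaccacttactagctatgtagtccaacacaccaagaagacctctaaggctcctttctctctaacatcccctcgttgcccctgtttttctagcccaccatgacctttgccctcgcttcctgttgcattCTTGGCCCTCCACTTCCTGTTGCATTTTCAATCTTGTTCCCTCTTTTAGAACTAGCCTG
Ccl9: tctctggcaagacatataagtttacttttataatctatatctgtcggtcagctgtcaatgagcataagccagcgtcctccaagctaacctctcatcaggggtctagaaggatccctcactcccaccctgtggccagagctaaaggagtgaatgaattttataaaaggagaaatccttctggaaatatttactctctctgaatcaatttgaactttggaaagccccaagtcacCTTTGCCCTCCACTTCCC

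Neither the STAT motif TTCNNNGAA (in 8.3% of all promoters) nor the C/EBP motif TTGCNNAA (10.8%) occurred in any of the 5 windows, on either strand. The AP-1 motif TGANTCA, in 7.81% of all promoters, occurred in Ccl9 at bases -53 to -47 and in no other of the 5. The NF-kappaB consensus, in 8.46% of all promoters, likewise occurred in Ccl9 alone, on the opposite strand at -35 to -26. Ccl6, with the same order of mean levels as Ccl9, held neither in its window. All 6 motifs searched had shares between 7.81% and 28.28%, and their part in the levels was not tested.

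Ccl24, a ligand of the eosinophil receptor CCR3, was dim on every array. Its signal was 5.53 and 5.04 in GM-BMDC, 5.06 and 5.06 in GM-BMM, and 4.63 and 4.95 in M-BMM. Both M-BMM arrays were low, and the remaining 4 lay just above the low line. GM-BMDC exceeded M-BMM by 0.50 ± 0.18 (limma adjusted p = 0.121, 95% interval 0.07 to 0.93), a difference that passed without GM-BMDC array 2 (0.74, adjusted p = 0.0336) and was 0.25 without GM-BMDC array 1 (adjusted p = 0.474). The other differences were 0.23 between GM-BMDC and GM-BMM and 0.27 between GM-BMM and M-BMM, both within intervals that include 0.

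**Figure D2:**
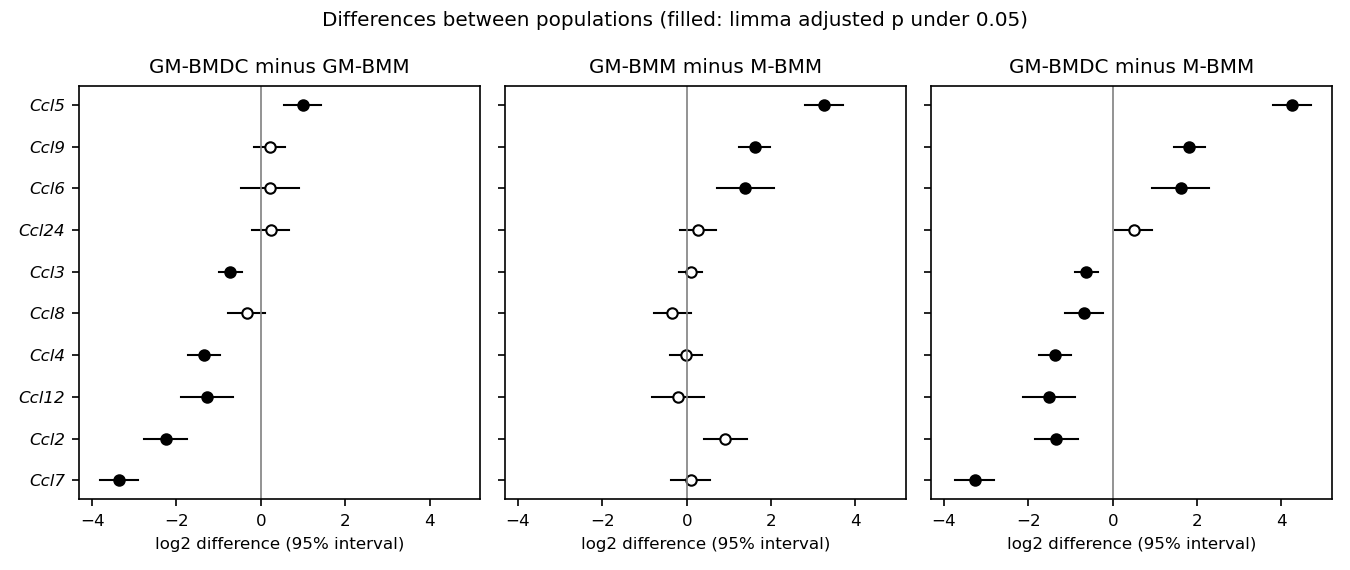
Log2 difference of each ligand in 3 comparisons, with the 95% interval from limma as a line and filled points for adjusted p under 0.05. Ccl5, Ccl9 and Ccl6 lie right of 0 in both comparisons with M-BMM, and Ccl7, Ccl2, Ccl12, Ccl4 and Ccl3 lie left of 0 in both comparisons of GM-BMDC.

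The ligands can be set beside the marker lists given above. The dendritic cell sum was highest in GM-BMDC, as were the means of Ccl5, Ccl6, Ccl9 and Ccl24. The macrophage sum was lowest there, as were the means of Ccl2, Ccl3, Ccl4, Ccl7, Ccl8 and Ccl12. Both of these sums include genes tied to the sort. The monocyte sum was highest in GM-BMM, as were the means of Ccl2, Ccl3 and Ccl7. Of the monocyte list, Plac8, Hp and Chil3 also had their highest means in GM-BMM. Ccr2 of that list had its highest mean in GM-BMDC (10.57, against 9.82 in GM-BMM). Ccl6, Ccl9 and Ccl24 did not pass between the GM-CSF populations, nor did Ccl2, Ccl3 and Ccl7 between GM-BMM and M-BMM. The part of these cell types in the differences was not tested. Across the 6 arrays, which fall into 3 populations, Ccl7 and Ccl3 had a Pearson correlation of 0.97, Ccl4 and Ccl12 of 0.97, Ccl9 and Ccl6 of 0.97, and Ccl9 and Ccl5 of 0.96. Ccl7 and Ccl5 had a correlation of -0.67.

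In RefSeq order along chromosome 11, the CC ligand genes run Ccl2, Ccl7, Ccl11, Ccl12, Ccl8 and Ccl1, and, after a wide gap, Ccl5, Ccl9, Ccl6, Ccl3 and Ccl4. Ccl24 lies on chromosome 5 beside Ccl26. The ligands that rose in GM-BMM relative to M-BMM, Ccl5, Ccl9 and Ccl6, are consecutive among these genes, and Ccl3 and Ccl4, which follow them, had differences of 0.09 and -0.03 there. In the first block, Ccl2, Ccl7 and Ccl12 fell in GM-BMDC relative to GM-BMM, whereas Ccl11, which lies between Ccl7 and Ccl12, and Ccl8 and Ccl1, which follow Ccl12, had differences of -0.10, -0.34 and 0.36 that did not pass. The grouping was noticed in these values and was not tested. In RefSeq the span of a predicted Ccl4 transcript overlaps Ccl3, and Ccl5 and Ccl6 lie within spans of long non-coding genes, and probe positions were not used here, so signal from an overlapping transcript on the same strand cannot be told apart.

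**Figure D3:**
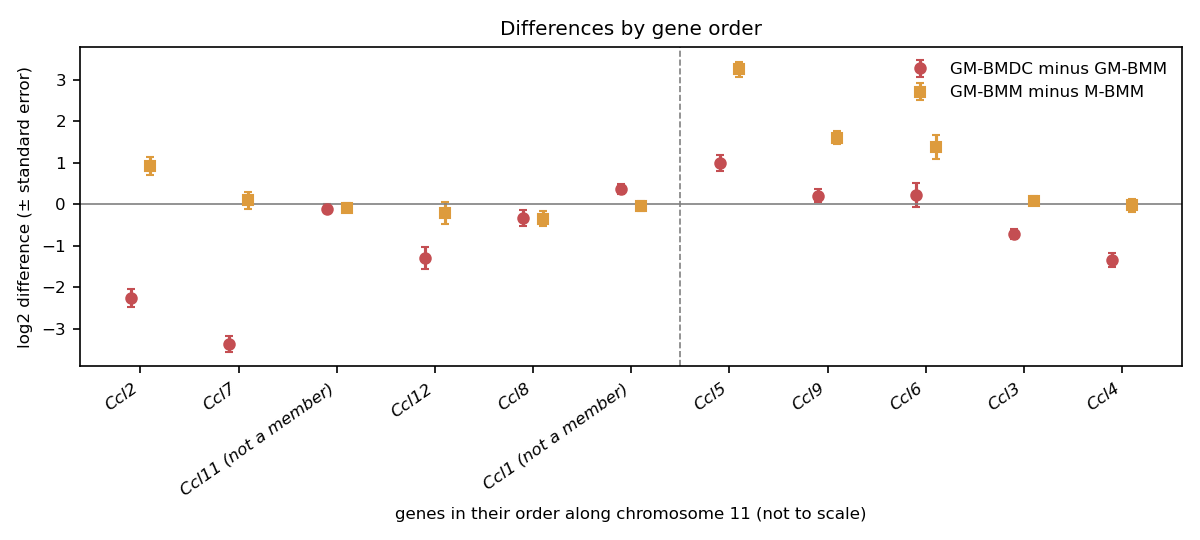
Log2 difference (± standard error) of CC ligand genes in their order along chromosome 11, not to scale, for GM-BMDC minus GM-BMM (circles) and GM-BMM minus M-BMM (squares), with a dashed line at the wide gap. The squares of Ccl5, Ccl9 and Ccl6 stand at 3.26, 1.61 and 1.39, and the circles of Ccl2 and Ccl7 at -2.25 and -3.37.

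Outside the 10 ligands, 9 of 11 listed CC chemokine genes were measured. Ccl22 and Ccl17, ligands of CCR4 and known products of dendritic cells, were the 2 that rose in GM-BMDC relative to GM-BMM, and none fell (limma, with 1 lower at an unadjusted p under 0.05). The median log2 difference of the 9 was 0.06 in that comparison, against 0.02 over all genes. Ccl22 had signals of 12.36 and 12.12 in GM-BMDC, 7.56 and 6.41 in GM-BMM, and 5.45 and 4.94 in M-BMM. It rose 38.4-fold in GM-BMDC relative to GM-BMM (5.26 ± 0.35, limma adjusted p = 0.000257), and 3.45-fold in GM-BMM relative to M-BMM (1.79 ± 0.35, adjusted p = 0.0271). Ccl17 had signals of 13.29 and 13.03 in GM-BMDC, 10.74 and 6.74 in GM-BMM, and 5.99 and 5.94 in M-BMM, so its GM-BMM arrays lay far apart. It rose by 4.42 ± 1.05 in GM-BMDC relative to GM-BMM (limma adjusted p = 0.039) and by 7.20 ± 1.05 relative to M-BMM (adjusted p = 0.00361). The remaining 7 did not pass in any comparison and differed by at most 0.36 in GM-BMDC relative to GM-BMM.

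Of the CC receptor genes listed, 14 were measured. In GM-BMM relative to M-BMM, 3 rose and none fell (2 were lower at an unadjusted limma p under 0.05), and in GM-BMDC relative to M-BMM 5 rose and 2 fell. Their median log2 difference was 0.14 in GM-BMM minus M-BMM, against -0.02 over all genes. Ccr2, the receptor of Ccl2, Ccl7 and Ccl12, had signals of 10.09 and 11.04 in GM-BMDC, 9.95 and 9.70 in GM-BMM, and 7.36 and 6.29 in M-BMM. It rose 7.99-fold in GM-BMM relative to M-BMM (3.0 ± 0.39, limma adjusted p = 0.00519) and 13.4-fold in GM-BMDC relative to M-BMM (3.74 ± 0.39, adjusted p = 0.000867). Ccr1, the receptor of Ccl3, Ccl5, Ccl6 and Ccl9, had signals of 8.58 and 9.67 in GM-BMDC, 10.26 and 8.98 in GM-BMM, and 6.85 and 6.63 in M-BMM. It rose 7.39-fold in GM-BMM relative to M-BMM (2.89 ± 0.45, limma adjusted p = 0.011) and 5.22-fold in GM-BMDC relative to M-BMM (2.38 ± 0.45, adjusted p = 0.0115). The GM-CSF populations overlapped in Ccr1.

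In GM-BMDC relative to GM-BMM 2 receptors rose and 1 fell. Ccr7, which guides dendritic cells to lymph nodes and has none of the 10 ligands among its own, rose 22.4-fold (4.49 ± 0.19, limma adjusted p = 4.23e-05), and Ccr6 rose 1.79-fold (0.84 ± 0.14, adjusted p = 0.0113). Ccrl2, an atypical receptor that does not signal for migration, fell 4.13-fold (-2.05 ± 0.26, limma adjusted p = 0.00302), with signals of 8.0 and 8.39 in GM-BMDC, 9.87 and 10.61 in GM-BMM, and 9.55 and 9.21 in M-BMM. Ccr3, the receptor of Ccl24, lay between 5.24 and 5.76 on all arrays and did not pass in any comparison.

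**Figure D4:**
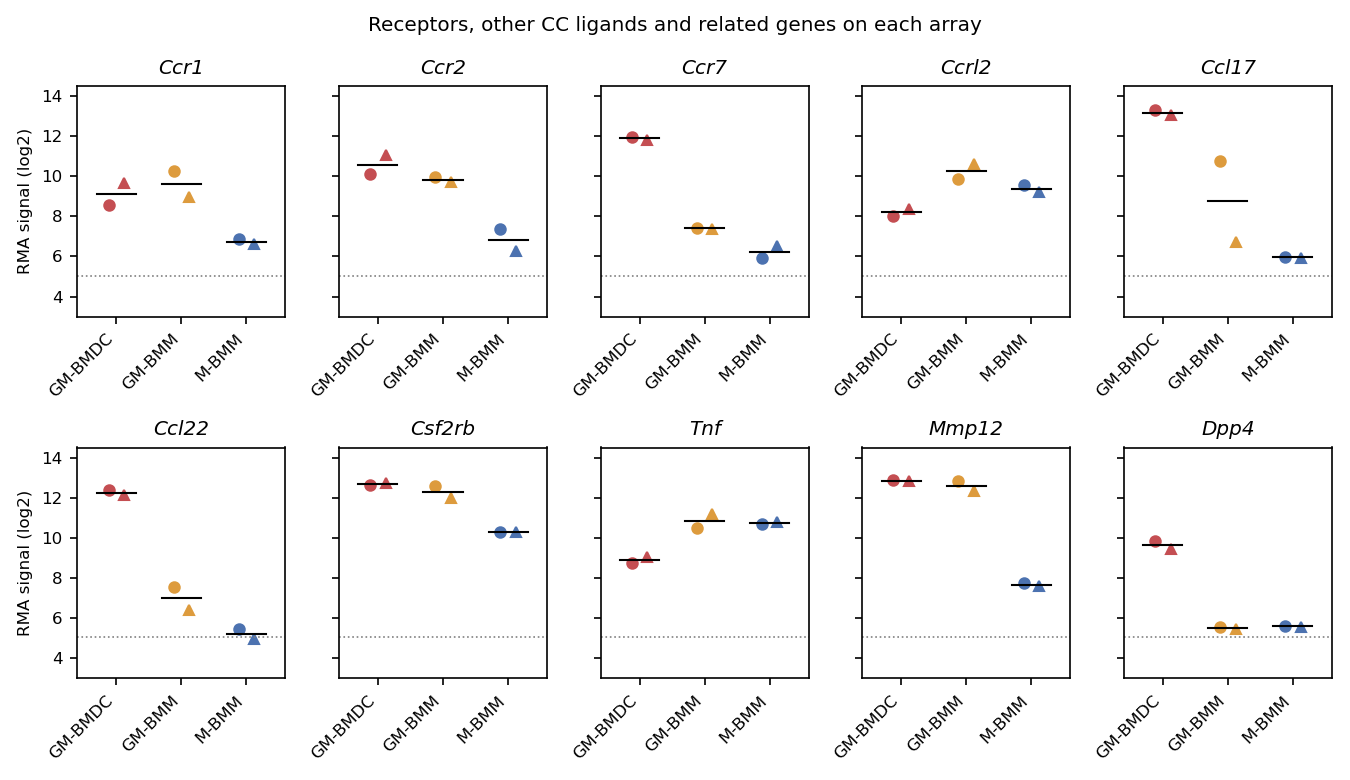
RMA log2 signal of receptors, other CC ligands and related genes on the 6 arrays, with GM-BMDC, GM-BMM and M-BMM from left to right, circles for array 1, triangles for array 2, bars at means and a dotted line at 5.04. Ccr2 lies at 7.36 and 6.29 in M-BMM and between 9.70 and 11.04 in the other 4 arrays, and Dpp4 lies at 9.82 and 9.42 in GM-BMDC and between 5.47 and 5.60 in the other 4.

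Among 25 measured genes of transcription factors and their inhibitors known to act on chemokine genes, 7 rose and 4 fell in GM-BMDC relative to GM-BMM, and 1 rose and none fell in GM-BMM relative to M-BMM (5 higher and 0 lower at an unadjusted limma p under 0.05). Their median log2 difference was 0.12 in GM-BMDC minus GM-BMM and 0.30 in GM-BMM minus M-BMM, against 0.02 and -0.02 over all genes. In GM-BMDC relative to M-BMM 8 rose and 4 fell. Irf7, an interferon regulatory factor induced by type I interferon, had signals of 7.73 and 7.97 in GM-BMDC, 10.50 and 11.38 in GM-BMM, and 10.69 and 10.54 in M-BMM. It fell 8.53-fold in GM-BMDC relative to GM-BMM (-3.09 ± 0.26, limma adjusted p = 0.000632), the same order as Ccl7. Irf4, a factor of dendritic cell and alternative macrophage programmes, rose 5.33-fold in that comparison (2.41 ± 0.34, limma adjusted p = 0.00493) and 5.13-fold in GM-BMM relative to M-BMM (2.36 ± 0.34, adjusted p = 0.00741). Fos, a subunit of AP-1, fell 3.83-fold in GM-BMDC relative to GM-BMM (-1.94 ± 0.40, limma adjusted p = 0.024). Nfkbiz, a nuclear inhibitor-like cofactor of NF-kappaB, fell 4.17-fold in GM-BMDC relative to M-BMM (-2.06 ± 0.35, limma adjusted p = 0.00675).

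Of 8 genes for mRNA turnover, Zfp36l1 rose in all 3 comparisons and Zc3h12a fell in the comparisons of GM-BMDC. In GM-BMDC relative to GM-BMM 1 rose and 1 fell, against 10.4% of all genes called. In GM-BMM relative to M-BMM 1 rose and none fell, against 6.19%. In GM-BMDC relative to M-BMM 2 rose and 1 fell, against 16.7%. Their median log2 difference was 0.07, 0.10 and 0.14 in these comparisons, against 0.02, -0.02 and -0.0024 over all genes. Zfp36l1, which binds AU-rich elements and promotes mRNA decay, rose 1.81-fold in GM-BMDC relative to GM-BMM (0.85 ± 0.15, limma adjusted p = 0.0138) and 1.80-fold in GM-BMM relative to M-BMM (0.85 ± 0.15, adjusted p = 0.0199). Zc3h12a, an RNase that cuts cytokine mRNAs, fell 1.91-fold in GM-BMDC relative to GM-BMM (-0.93 ± 0.17, limma adjusted p = 0.0155). Zfp36, the decay factor tristetraprolin, rose 1.61-fold in GM-BMDC relative to M-BMM (0.68 ± 0.16, limma adjusted p = 0.0284).

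Receptors and cytokines that act upstream of the ligands were measured for 16 of 17 genes. In GM-BMDC relative to GM-BMM 5 fell and none rose (8 lower and 0 higher at an unadjusted limma p under 0.05), and in GM-BMM relative to M-BMM 4 rose and 1 fell. Their median log2 difference was -0.44 in GM-BMDC minus GM-BMM, against 0.02 over all genes. Il1b had signals of 9.06 and 9.01 in GM-BMDC, 11.52 and 11.54 in GM-BMM, and 8.91 and 8.70 in M-BMM. This inflammatory cytokine fell 5.63-fold in GM-BMDC relative to GM-BMM (-2.49 ± 0.12, limma adjusted p = 5.64e-05) and rose 6.62-fold in GM-BMM relative to M-BMM (2.73 ± 0.12, adjusted p = 4.34e-05). Tnf, another inducer of chemokines, had signals of 8.76 and 9.03 in GM-BMDC, 10.49 and 11.16 in GM-BMM, and 10.70 and 10.77 in M-BMM, and fell 3.8-fold in GM-BMDC relative to GM-BMM (-1.93 ± 0.21, limma adjusted p = 0.00193). Cd14, a co-receptor for lipopolysaccharide, fell 3.63-fold in GM-BMDC relative to GM-BMM (-1.86 ± 0.19, limma adjusted p = 0.00134). Csf2rb, the beta chain of the GM-CSF receptor, rose 3.99-fold in GM-BMM relative to M-BMM (2.0 ± 0.19, limma adjusted p = 0.00128) and 5.21-fold in GM-BMDC relative to M-BMM (2.38 ± 0.19, adjusted p = 0.000305), and so had the same populations high as Ccl6 and Ccl9.

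Proteases that trim chemokines, and proteoglycans that carry them, were measured for 14 of 14 listed genes. In GM-BMDC relative to GM-BMM 1 rose and 5 fell, in GM-BMM relative to M-BMM 5 rose and none fell (7 higher and 0 lower at an unadjusted limma p under 0.05), and in GM-BMDC relative to M-BMM 6 rose and 4 fell. Their median log2 difference was -0.37 in GM-BMDC minus GM-BMM and 0.57 in GM-BMM minus M-BMM, against 0.02 and -0.02 over all genes. Dpp4, which removes N-terminal dipeptides from chemokines such as Ccl5, rose 17.3-fold in GM-BMDC relative to GM-BMM (4.12 ± 0.15, limma adjusted p = 4.23e-05) and 16.4-fold relative to M-BMM (4.04 ± 0.15, adjusted p = 1.56e-05). Mmp2, a gelatinase that cleaves Ccl7, had signals of 7.07 and 7.20 in GM-BMDC, 11.44 and 11.72 in GM-BMM, and 8.55 and 8.58 in M-BMM. It fell 21.8-fold in GM-BMDC relative to GM-BMM (-4.44 ± 0.13, limma adjusted p = 2.61e-05) and rose 8.08-fold in GM-BMM relative to M-BMM (3.01 ± 0.13, adjusted p = 4.39e-05). Mmp9, the other gelatinase, fell 17.4-fold in GM-BMDC relative to GM-BMM (-4.12 ± 0.13, limma adjusted p = 2.98e-05). Mmp12, the macrophage elastase, rose 30.3-fold in GM-BMM relative to M-BMM (4.92 ± 0.16, limma adjusted p = 1.95e-05) and 36.7-fold in GM-BMDC relative to M-BMM (5.2 ± 0.16, adjusted p = 1.07e-05).

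The genes whose pattern over the 6 arrays was most like each ligand were found by Pearson correlation among 2857 genes whose highest and lowest arrays differed by at least 1 log2 unit. These correlations describe 3 clusters of arrays and carry no p. Ccl5 was most like Sema4a (0.998) and Plxnd1 and Cd74 (0.996 each), Cd74 being the invariant chain of class II, a product related to the sort gate. Ccl9 was most like Ahr, the aryl hydrocarbon receptor (0.999), which had signals of 8.92 and 8.96 in GM-BMDC, 8.89 and 8.16 in GM-BMM, and 5.98 and 5.82 in M-BMM. Ccl6 was most like Plaur, the urokinase receptor (0.997), which stood at 10.27 and 10.40 in GM-BMDC, 10.88 and 9.26 in GM-BMM, and 7.70 and 7.53 in M-BMM, with the first GM-BMM array above the second, as for Ccl6. The next most like Ccl6 were Tmem154 and Sh3pxd2b (0.991 each), and the next most like Ccl9 were Ptch1 (0.999) and Myadm (0.998).

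Ccl4 was most like G530011O06Rik (0.997) and the interferon-induced gene Rsad2 (0.995), followed by Tnip1 (0.993). Ccl12 was most like Parp14 (0.995), followed by Rab20 (0.992) and the interferon-induced Ifit3b (0.987). Rsad2 had signals of 8.30 and 8.19 in GM-BMDC, 10.68 and 11.30 in GM-BMM, and 10.98 and 10.83 in M-BMM, so that GM-BMDC lay below both macrophage populations, as for Ccl4. Ccl7 was most like Tfpi, an inhibitor of coagulation (0.996), followed by Gstm4 (0.995) and Bace1 (0.994). Ccl2 was most like Golim4 (0.994), followed by Hpse (0.991) and Scamp1 (0.989). Ccl3 was most like Plac8 (0.993), a gene of the monocyte list, followed by Gsta3 (0.989) and Mmp9 (0.982). Ccl8 was most like Gatm (0.996), followed by Pim2 (0.986) and Calhm6 (0.984). Ccl24 was most like Gimap6 (0.984), followed by Chst3 (0.968) and Serinc2 (0.966). Between 13 genes for Ccl24 and 327 for Ccl7 had a correlation above 0.9.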

How the data were processed

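RNA of 6 sorted samples, 300 ng each, was hybridised to 1 Affymetrix array per sample. The deposited values are log2 signals of 35556 probe sets, which the authors made with Affymetrix Expression Console 1.1 and RMA, per the submitters' processing notes; RMA corrects background, equalises the arrays' distributions and summarises probes, which compresses large differences. By the array annotation, 21789 probe sets belong to a single gene, 1621 to several and 12146 to no gene. For the 999 genes with more than 1 probe set, that with the highest mean was kept, so that 19938 genes remained. The build behind the array annotation is not given in the sources used here, so gene order and promoters come from RefSeq GRCm38.p6.

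All genes were tested with limma 3.58.1 (R 4.3.3, lmFit and eBayes) on the 6 arrays together, two-sided, with 3 residual and 4.34 prior degrees of freedom, no filter and no pseudocount. P-values were adjusted by Benjamini-Hochberg within each comparison, and the median standard error was 0.132. Arrays have no read depth, and their number limits the precision: with 2 arrays against 2, an exact permutation test of a single gene cannot go below p = 0.333. The fit was tested on simulated data. Promoters were searched for 6 motifs on both strands and aligned in pairs with Biopython 1.88 (match 2, mismatch -3, gap opening -5, gap extension -2). Tables used pandas 2.3.3 and NumPy 2.4.6 in Python 3.11.15, and figures used matplotlib 3.10.9.

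The members and the lists were chosen with earlier results of these data known. The naming rule took all members, up to 3 genes of each list and comparison past the threshold with the largest difference, the 3 genes most like each member, and the sex-linked genes. Csf2ra, Mmp8 and Mmp13 also met it and are not described. Genes named outside that rule, chosen after their values were seen, are Ccr3, Ccl11, Ccl1, Ccl26 and the genes named singly from the marker lists. Alternatives changed the arrays used, the block, the variance model, the filter, the normalization, the probe sets and the threshold.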

Additional observations from a re-analysis of the deposited data

How the results depend on the processing

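Without moderation of the variances, which leaves 3 degrees of freedom per gene, 0 ligands were called in each comparison, and over all genes 0 calls were made in GM-BMDC minus GM-BMM, 8 in GM-BMM minus M-BMM, and 17 in GM-BMDC minus M-BMM. At an unadjusted p under 0.05 the same fit gave 6, 3 and 8 ligands, against 3686, 3075 and 4628 of all 19938 genes. With a fold of at least 2 added to the threshold, the calls over all genes were 935, 603 and 1385 in the same order. Fitting only the groups compared gave 1207 genes for GM-BMDC minus GM-BMM. Without both GM-CSF arrays numbered 2, GM-BMM minus M-BMM had 5 ligands and 2048 genes called. With mean Y-linked signal as a covariate, GM-BMDC minus M-BMM had 2114 genes called. Under that covariate the call of Ccl6 in GM-BMM minus M-BMM (1.11, limma adjusted p = 0.0986) and that of Ccl8 in GM-BMDC minus M-BMM (-0.60, adjusted p = 0.171) were lost. Leaving out each array in turn gave between 4 and 7 ligands and between 1102 and 2055 genes for GM-BMDC minus GM-BMM, between 2 and 4 ligands and between 319 and 1347 genes for GM-BMM minus M-BMM, and between 4 and 9 ligands and between 1288 and 3412 genes for GM-BMDC minus M-BMM.

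Every reversal concerned a difference that did not pass the threshold. In GM-BMDC minus GM-BMM, Ccl24 was -0.0129 without both GM-CSF arrays numbered 1, and Ccl6 was -0.36, Ccl8 0.0792 and Ccl9 -0.0138 without both numbered 2. In GM-BMM minus M-BMM, Ccl4 was 0.17, Ccl7 -0.16 and Ccl12 0.17 without both numbered 1, and Ccl4 was 0.0402 and Ccl12 0.0101 with the Y-linked covariate. Leaving out single arrays gave -0.0132 to 0.47 for Ccl24 and -0.28 to 0.72 for Ccl6 in GM-BMDC minus GM-BMM, and -0.22 to 0.17 for Ccl4, -0.16 to 0.35 for Ccl7 and -0.61 to 0.17 for Ccl12 in GM-BMM minus M-BMM. The causes were not tested.

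Deviations of same-numbered arrays correlated at 0.02 between GM-BMDC and GM-BMM, 0.03 between GM-BMM and M-BMM and -0.13 between GM-BMDC and M-BMM. Taken over all genes with 2 arrays a group, these values cannot show whether same-numbered arrays shared an animal or culture. The first arrays of both GM-CSF populations carried Xist and no Y-linked signal above the low line. Their second arrays differed from each other, with Xist at 10.68 in GM-BMDC and 4.93 in GM-BMM. With the replicate number as a block, 6, 3 and 8 ligands and 1963, 1176 and 3060 genes were called. With the M-BMM numbers crossed, an alternative chosen after seeing the data, 8 ligands and 3155 genes were called in GM-BMDC minus M-BMM. Under the filter on low values Ccl8 was not tested. With 2 arrays a group, a change within one population is measured against few degrees of freedom, and signals near or under 5.04 (Ccl8, Ccl24, Ccl12 in GM-BMDC) are not shown to lie above background.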
